A study of Rattus norvegicus with 6 samples.

Results

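AMP-activated protein kinase (AMPK) is built from a catalytic alpha, a scaffolding beta and a nucleotide-sensing gamma subunit, each encoded by several genes. The genes described here are the AMPK subunit genes Prkaa1, Prkaa2, Prkab1, Prkab2, Prkag1, Prkag2 and Prkag3 and the upstream kinase genes Stk11 and Camkk2. They were chosen by name, through the RefSeq transcript that each array probe was designed on, which gave 9 genes and 13 probes out of 61537 non-control probes. The family was picked because the difference of Prkab2 between the groups was already known, so the differences of its members are a description and are given with no test. Of the 13 probes, 11 passed the filter on low signal, and each of the 9 genes had a probe among the 29647 features compared.

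Signal was measured in the renal cortex, the outer part of the kidney, of 6 male Sprague-Dawley (Crl:CD(SD)) rats bought at 5 weeks of age, each on an Agilent one-colour array of its own. The 3 control rats received water for 4 weeks, and the 3 treated rats received 1000 mg/kg/day of dipropylene glycol (DPG), which is used as a solvent, for the same time. Both groups had a basal diet and tap water, and the labels call the 3 samples of a group biological replicates. Since the controls shared 1 slide and scan run and the treated rats shared a different one, slide, scan and treatment cannot be told apart.

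AMPK is switched on when AMP or ADP binds the gamma subunit and an upstream kinase phosphorylates the alpha subunit. It slows processes that consume ATP, such as fatty acid and protein synthesis, and favours those that yield it. In the kidney it is known as a regulator of tubular ion transport and of the balance between fat oxidation and lipid storage. Its activity is set largely by phosphorylation, which an expression array does not measure.

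Between 39556 and 43184 probes per array were well above background, and 0 spots were saturated. Control 3 had the fewest such probes and 34 spots with outlier flags, against at most 4 on any other array, and probes with such a flag were left out. Proximal tubule markers such as Lrp2, Slc34a1 and Slc5a2 and the podocyte marker Nphs1 were well above background on all arrays, which fits kidney tissue. A probe of the inner medulla marker Slc14a2 (processed signal 114 to 190) was so as well, while its other probes were so on 0 arrays. Probes of Aqp4, also an inner medulla marker, ran from 0 to 6 arrays well above background. Detection therefore does not tell cortex from medulla. In tissue RNA, fewer cells of a type and less RNA per cell cannot be told apart. Values below are log2 signals relative to the 75th percentile of the array, a level that depends on the probe, so each gene is compared between animals and not with other genes.

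The beta subunit genes, which encode the scaffold that ties the catalytic to the sensing subunit, are Prkab1 and Prkab2. Prkab2 (probe A_44_P347662, transcript NM_022627) gave log2 signals of -4.59, -4.32 and -4.46 in the 3 control rats. In the DPG rats, numbered 1 to 3, it gave -3.05, -2.61 and -3.30. The lowest DPG animal lay 1.03 above the highest control on the log2 scale, and DPG 2 was the highest of the 6. The log2 difference, DPG minus control, was 1.47 (SE 0.18, n = 3 per group), a ratio of 2.76, and the DPG animals varied more (SD 0.34) than the controls (SD 0.13). By size it was number 68 of the 29647 log2 differences. It lay between 1.28 (without DPG 2) and 1.62 (without DPG 3) when 1 animal was left out.

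Prkab1 (probe A_44_P1056161) encodes the other beta subunit. Its log2 signals were 4.59, 4.50 and 4.60 in the controls and 4.36, 4.33 and 4.51 in the DPG rats. DPG 3 lay within the range of the controls and the other two DPG rats below it, for a log2 difference of -0.16 (SE 0.08). Taken within each array, the log2 signal of Prkab2 minus that of Prkab1 stood 1.61, 2.07 and 1.22 above its control mean in DPG 1 to 3. In the controls the same quantity lay between -0.16 and 0.20. The pair thus differed unequally between the groups, which says nothing of the relative amounts of either transcript.

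**Figure D1:**
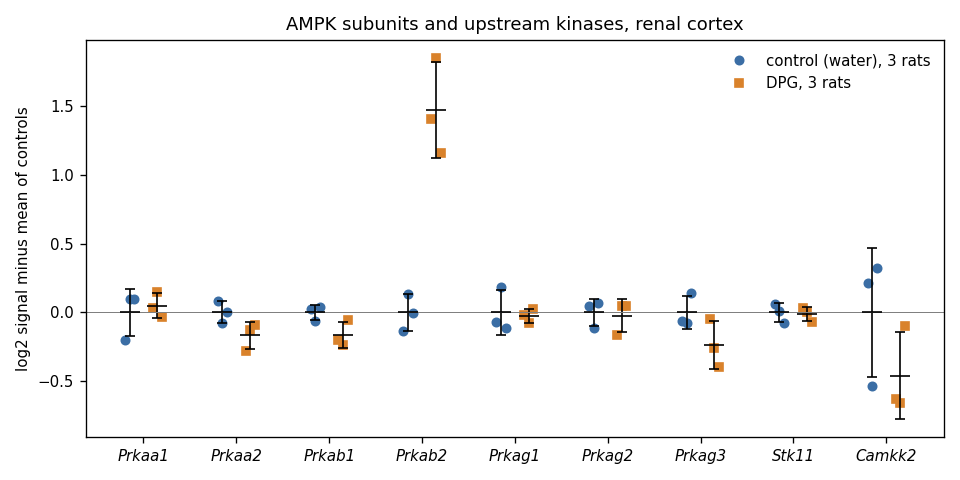
Log2 signal of each of the 9 genes on the 6 arrays, less the mean of the 3 controls, for 3 control rats (blue circles) and 3 DPG rats (orange squares). Black lines are the mean and SD of each group. Only for Prkab2 do the groups stand apart by more than 1 log2 unit, with a log2 difference of 1.47.

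The Prkab2 spot was dim on every array. Its processed signal, the spot brightness after background subtraction, was 38.7, 45.3 and 38.8 in the controls and 107.1, 139.2 and 87.5 in the DPG rats. All 6 values were called well above background by the scanner software, and the lowest signal so called was between 14.3 and 24.4 per array. Before subtraction, the median pixel intensity of the spot was 78, 80.5 and 74 in the controls and 143, 170 and 124.5 in the DPG rats. The local background around it was 27, 28 and 28 in the controls and 23, 24 and 26 in the DPG rats. The groups did not overlap in the unsubtracted values either. The size depended on signal processing: with normexp correction and an offset of 50, which pulls dim spots together, the log2 difference was 0.76 (SE 0.10). That alternative started from the median pixel intensity and not from the processed signal, so input and background step changed together. The gene has 1 probe under the naming used here, so no second probe bears on it.

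**Figure D2:**
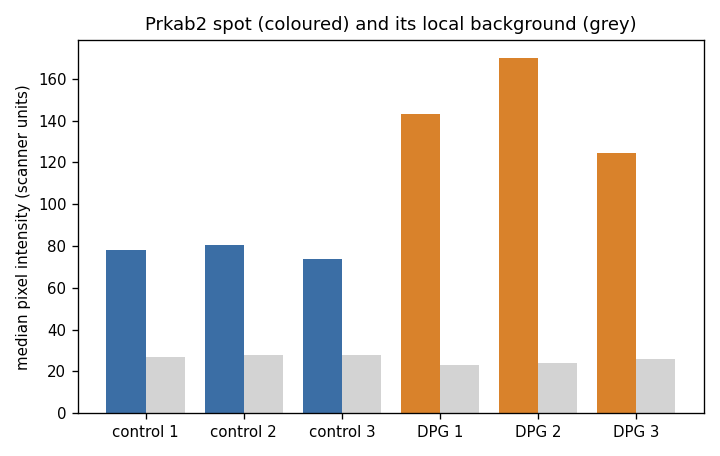
Median pixel intensity of the Prkab2 spot (coloured bars, blue for control and orange for DPG) and of its local background (grey bars) on each array, in scanner units from 0. The spot reads 74 to 80.5 in the controls and 124.5 to 170 in the DPG rats, while the background stays between 23 and 28.

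The catalytic subunit genes differed little. Prkaa1 (probe A_44_P168265) had log2 signals of -2.95, -2.65 and -2.65 in the controls and -2.72, -2.60 and -2.78 in the DPG rats. Its groups overlapped, with a log2 difference of 0.05 (SE 0.11), and the sign turned when control 1 or DPG 2 was left out. Prkaa2 (probe A_44_P154112) had 2.05, 1.89 and 1.97 in the controls and 1.69, 1.84 and 1.88 in the DPG rats. The groups missed each other by only 0.01, between control 2 and DPG 3. The log2 difference of Prkaa2 was -0.17 (SE 0.08), and with normexp correction it was -0.02 (SE 0.10), and without DPG 1 it was -0.11.

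Of the nucleotide-sensing gamma subunit genes, Prkag1 and Prkag2 lay close to their control levels. Prkag1 (probe A_44_P337094) had log2 signals of 0.58, 0.83 and 0.53 in the controls and 0.63, 0.57 and 0.67 in the DPG rats, a log2 difference of -0.02 (SE 0.10). Prkag2 (probe A_44_P341870) had -0.87, -1.03 and -0.85 in the controls and -1.08, -0.87 and -0.87 in the DPG rats, also a log2 difference of -0.02 (SE 0.09). Both overlapped between the groups. The second Prkag2 probe gave a log2 difference of -0.07 (SE 0.10). The sign for Prkag1 turned without control 2 or DPG 2, and that for Prkag2 with normexp correction (0.05) and without control 1, control 3 or DPG 1.

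Prkag3 encodes the gamma subunit known mainly from skeletal muscle. Its log2 signals on probe A_44_P469088 were -2.38, -2.40 and -2.18 in the controls and -2.37, -2.58 and -2.72 in the DPG rats. DPG 2 and DPG 3 lay below all controls and DPG 1 within their range, for a log2 difference of -0.23 (SE 0.12), or -0.15 without DPG 3. The other two Prkag3 probes were not well above background on any array, with processed signals from 2.98 to 9.26, so the 3 probes of the gene disagreed on whether it was detected. Skeletal muscle markers were dim in the same arrays but not all at background. Probes of Acta1 and Tnnt3 were well above it on 6 arrays and a Ckm probe on 5, while no Myh2 or Myh4 probe was on more than 2 and no Myh1 probe on any. The summed level of the 3 of 8 muscle markers with a tested feature was 0.125 to 0.188 times the 75th percentile in controls and 0.148 to 0.189 in DPG. Of those 3, 2 had a log2 difference above 0 and 1 below, with a median of 0.10. The muscle actin gene Acta1 had -0.53 (SE 0.11). Ckm had 0.89 (SE 0.68) and Tnnt3 0.10 (SE 0.29), and both overlapped between the groups. The part of muscle RNA in the Prkag3 or Prkab2 values was not tested.

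The upstream kinases phosphorylate the activation loop of the alpha subunit. Stk11, which encodes LKB1, had log2 signals of -1.85, -1.90 and -1.99 in the controls and -1.88, -1.91 and -1.98 in the DPG rats on probe A_44_P410670. The values interleaved, and the log2 difference was -0.01 (SE 0.07), with a value of 0.01 under median scaling or quantile normalization and 0.10 with normexp correction. Its sign also turned without control 1, control 2 or DPG 3. The second Stk11 probe gave -0.04 (SE 0.16).

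Camkk2 encodes the calcium-dependent upstream kinase. Its log2 signals on probe A_43_P12559 were -4.51, -5.26 and -4.40 in the controls and -5.35, -5.38 and -4.82 in the DPG rats. Control 2 was low among the controls, and the groups overlapped. The spot was well above background on all 3 control arrays and on 1 of 3 DPG arrays, with processed signals from 20.5 to 40.9. The log2 difference of Camkk2 was -0.46 (SE 0.27), and it moved between -0.73 without control 2 and -0.30 without control 3. With normexp correction it was -0.18.

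Over the 9 genes, 2 had a log2 difference above 0 and 7 below, with a median of -0.02, beside a median of 0.00 and a share above 0 of 50.8% over all 29647 features. Control and DPG values were fully separate for 1 gene on the higher side (Prkab2) and 1 on the lower side (Prkaa2). Over all features the groups did not overlap for 10.7% on the higher side and 8.96% on the lower side. Nothing is read from these counts, since the contrast chose the family. Apart from Prkab2, the log2 differences were at most 0.46 in size, and Camkk2 had the largest control SD (0.47).

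Markers of tubule segments and of other cell types stand beside these values. Of 4 thick ascending limb markers 4 had a log2 difference above 0, with a median of 0.36, and their summed level, most of it the Umod signal, was 516 to 558 times the 75th percentile in the controls and 624 to 674 in the DPG rats. Umod had a log2 difference of 0.25 (SE 0.07), Slc12a1 of 0.47 (SE 0.13), Kcnj1 of 0.20 (SE 0.12) and Cldn16 of 0.70 (SE 0.06). Cldn16, a claudin of that segment, had log2 signals of -0.63, -0.55 and -0.65 in the controls and 0.11, 0.11 and 0.07 in the DPG rats. Its second probe gave a log2 difference of 0.43. Of 5 adipocyte markers 3 had a tested feature. Fabp4 and Cidec had log2 differences of 1.89 (SE 0.70) and 0.56 (SE 0.20), and Adipoq had -0.45 (SE 0.14). The summed level of the adipocyte markers was 2.61 to 3.27 in the controls and 2.86 to 4.21 in the DPG rats, and no Lep probe was well above background on any array. Leukocyte markers summed to 3.32 to 3.68 in the controls and 3.12 to 4.47 in the DPG rats. Median log2 differences were -0.10 over 6 proximal tubule markers, -0.03 over 5 distal and collecting duct markers and 0.07 over 2 inner medulla and 2 red blood cell markers each. Among these, the DPG rats lay below all controls for Slc5a2 (-0.29, SE 0.10) and Atp6v0d2 (-0.23, SE 0.07). They lay above all controls for Aqp4 (0.29, SE 0.09), whose kept probes ran from -0.25 to 0.35. The other markers of these lists overlapped between the groups. Over all features the groups did not overlap for 19.7%. Of the podocyte genes, Nphs1 had a log2 difference of -0.28 (SE 0.11) and Wt1 of -0.19 (SE 0.07), with the DPG rats below all controls for both, and Podxl had -0.02 (SE 0.17). The part of these cells in the Prkab2 value was not tested.

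The nearest genes along the chromosome that had a tested feature were read beside Prkab2, in the order of RefSeq on the assembly GRCr8. Fmo5, which lies next to Prkab2 and encodes a flavin-containing monooxygenase, had log2 signals of -0.42, -0.12 and -0.01 in the controls. In DPG 1 to 3 it had 0.82, 1.05 and 0.57. All DPG rats lay above all controls, and DPG 2 was the highest and DPG 3 the lowest of the DPG rats, as for Prkab2. The order of the controls was not the same, as control 3 was highest for Fmo5 and control 2 for Prkab2. The log2 difference of Fmo5 was 1.00 (SE 0.16), which did not pass (limma adjusted p = 0.214, Benjamini-Hochberg), and it was 0.99 with normexp correction. Leaving out 1 animal at a time gave 0.88 to 1.12.

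The other neighbours with a tested feature overlapped between the groups. They are not adjacent to Prkab2: from 2 (Pde4dip) to 9 (Acp6) annotated genes lie between. Intervening genes with no tested feature could not be compared. On the Fmo5 side, Or13l2, an olfactory receptor gene, had a log2 difference of -0.23 (SE 0.12) and Acp6, a lysophosphatidic acid phosphatase gene, 0.04 (SE 0.08). On the other side, Pde4dip, which encodes a centrosome and Golgi protein, had -0.10 (SE 0.14), the vesicle trafficking gene Sec22b 0.24 (SE 0.16) and the receptor gene Notch2 0.03 (SE 0.14). Fmo5 was therefore the 1 gene of these 6 whose groups stood apart. Among all features the groups stood apart for 19.7%.

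**Figure D3:**
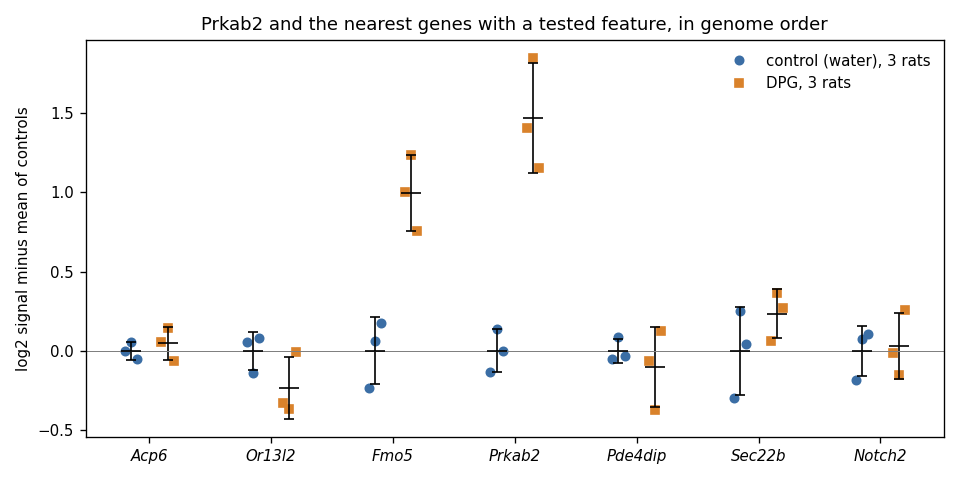
Log2 signal less the mean of the 3 controls for Prkab2 and the 6 nearest genes with a tested feature, in genome order, for 3 control rats (blue circles) and 3 DPG rats (orange squares). Black lines are mean and SD. Fmo5 and Prkab2 have log2 differences of 1.00 and 1.47, and the other genes lie between -0.23 and 0.24.

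Likeness to Prkab2 was taken as the root mean square difference over the 6 arrays between log2 signals centred on the control mean, as a description only. The nearest gene was Acsbg1, an acyl-CoA synthetase gene for long fatty acids, at 0.21. Its log2 signals were 2.05, 2.21 and 2.30 in the controls and 3.17, 3.90 and 3.10 in the DPG rats. DPG 2 was the highest, as the choice by likeness to Prkab2 favours. Noct, which encodes the circadian phosphatase nocturnin, followed at 0.24 with a log2 difference of 1.59 (SE 0.36). Cfap97d1 came next at 0.25, but was well above background on 0 control arrays. Its log2 difference was 1.60 (SE 0.22), and 0.29 with normexp correction. The transporter genes Slc22a24 (0.26) and Slc4a11 (0.29) and the proprotein convertase gene Pcsk6 (0.28) completed the 6. Slc22a24 had a log2 difference of 1.37 (SE 0.22), Slc4a11 of 1.51 (SE 0.28) and Pcsk6 of 1.31 (SE 0.27), with a second Pcsk6 probe at -0.03. Fmo5 lay at 0.35 by this measure and the other neighbours between 0.89 and 1.25.

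The other genes of the pathway were read in 4 lists that leave out the members, with 74 genes of which 62 had a tested feature. By limma with Benjamini-Hochberg adjustment 0 of the 62 passed, as did 0% of all features. At an unadjusted p of 0.05, 2 were higher and 3 lower in DPG (8.06% of the 62), against 12.4% of all features, 6.68% on the higher and 5.70% on the lower side. The count of 5 was 2 without control 1, 1 without DPG 1 and 2 without DPG 2, and it was 8 with normexp correction or an intensity trend with robust variance. As many of the 62 lay above 0 as below (31 each), and their median log2 difference was 0.00, as over all features.

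Regulators of AMPK beside the upstream kinases, such as the LKB1 partners Strada and Cab39 and the sestrins, had a median log2 difference of -0.05. Of 14 tested, 5 lay above 0 and 9 below. At an unadjusted p of 0.05, 0 were higher and 2 lower (14.3%, against 12.4% of all features). Sesn3, a stress-induced sestrin gene, had log2 signals of 0.50, 0.41 and 0.13 in the controls and -0.40, -0.12 and 0.16 in the DPG rats. DPG 3 overlapped with the controls, and the log2 difference of Sesn3 was -0.47 (SE 0.17; limma adjusted p = 0.376). Fnip1, which encodes a folliculin partner that binds AMPK, had -0.25 (SE 0.09; limma adjusted p = 0.383), but its 3 probes ran from -0.25 to 0.29 and their mean was 0.04. Axin1, a scaffold for LKB1 and AMPK, had 0.14 (SE 0.06; limma adjusted p = 0.430). The kinase gene Map3k7 had 0.11 (SE 0.07; limma adjusted p = 0.558).

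The substrate list holds genes whose proteins AMPK phosphorylates, so a level of their RNA is not a readout of that reaction. Of 25 tested, 15 lay above 0 and 10 below, with a median of 0.02. At an unadjusted p of 0.05, 2 were higher and 0 lower (8%, against 12.4% of all features). Cftr, a chloride channel gene, had log2 signals of -2.33, -1.25 and -2.23 in the controls and -0.64, -0.76 and 0.03 in the DPG rats. The groups did not overlap, though control 2 lay well above the other controls. The log2 difference of Cftr was 1.48 (SE 0.35; limma adjusted p = 0.272), and its second probe gave 0.47. The transcription factor gene Foxo3 had 0.35 (SE 0.12; limma adjusted p = 0.349), with a second probe at 0.06. The clock gene Cry1 had -0.37 (SE 0.16; limma adjusted p = 0.433), with DPG below all controls and a value of -0.21 without DPG 3, and Gbf1, a Golgi exchange factor gene, had 0.12 (SE 0.06; limma adjusted p = 0.487). The acetyl-CoA carboxylase genes Acaca and Acacb, which encode the best known AMPK substrates, had -0.15 (SE 0.13) and 0.28 (SE 0.17) and overlapped between the groups.

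**Figure D4:**
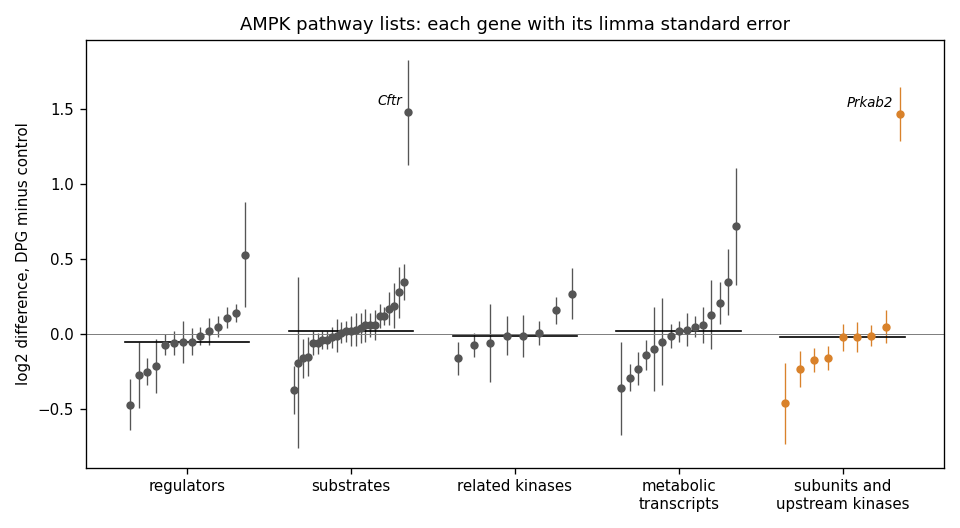
Log2 difference, DPG minus control, of each tested gene of the 4 AMPK pathway lists (grey) and of the 9 subunit and upstream kinase genes (orange), with the limma standard error as a bar and the list median as a black line. The medians lie between -0.05 and 0.02, and Cftr (1.48) and Prkab2 (1.47) stand highest.

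The AMPK-related kinases that LKB1 also activates had 8 tested members, with a median log2 difference of -0.01. Past an unadjusted p of 0.05 there were 0, against 12.4% of all features. The microtubule affinity kinase genes Mark1, Mark3 and Mark2 had 0.27 (SE 0.17), 0.16 (SE 0.09) and -0.07 (SE 0.08), and the SNF-related kinase gene Snrk had -0.16 (SE 0.11). Their limma adjusted p lay between 0.550 and 0.750. Mark1 was 0.11 and Mark2 -0.02 without DPG 2, Mark3 was 0.07 without control 2, and Snrk was -0.07 without control 3.

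Metabolic transcripts linked to AMPK activity had 15 tested members with a median log2 difference of 0.02. At an unadjusted p of 0.05, 0 were higher and 1 lower (6.67%, against 12.4% of all features). That 1 was Pck1, which encodes the gluconeogenic enzyme phosphoenolpyruvate carboxykinase, with log2 signals of 7.65, 7.58 and 7.54 in the controls and 7.22, 7.21 and 7.47 in the DPG rats. All DPG rats lay below the controls, and the log2 difference of Pck1 was -0.29 (SE 0.09; limma adjusted p = 0.342), with both probes between -0.29 and -0.26. Ppargc1a, which encodes the mitochondrial coactivator PGC-1alpha, had -0.23 (SE 0.11; limma adjusted p = 0.462). The glucose transporter gene Slc2a4, also a fat cell gene, had 0.72 (SE 0.39; limma adjusted p = 0.507), and Cpt1b, a carnitine palmitoyltransferase gene, had 0.35 (SE 0.22; limma adjusted p = 0.570). Leaving out control 1 brought Slc2a4 to 0.35 and Cpt1b to 0.15, while Slc2a4 was 1.10 and Ppargc1a -0.14 without control 3, and Cpt1b was 0.59 without control 2. The other gluconeogenic gene G6pc1 had 0.03 (SE 0.11).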

How the data were processed

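Total RNA was labelled with Cy3 and read with Agilent Feature Extraction (10.7.1.1 per the file headers, 10.7 per the submitters' processing notes). The main value is the intensity of each spot, from which the authors' deposited files, per the file headers, have already removed background and spatial trends. It is linear and was not scaled between arrays. The deposited table of the series holds the ratio of that signal to a constant of each array near its 75th percentile. Compared with scanner signals for 61537 probes it is linear, not centred per gene and runs the same way, with column medians of 0.110, 0.111, 0.114, 0.111, 0.108 and 0.112 (controls 1 to 3, DPG 1 to 3). Its exact scaling step stays unknown.

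Spots of control type were dropped, each array's 75th percentile was subtracted on the log2 scale, and a probe was kept if 1 or both groups had it well above background in all 3 animals (40406 probes, of which 23 with outlier flags were dropped). Probes were named through RefSeq accessions without versions (assembly GRCr8). In all 28206 probes had 1 symbol, 0 had several, and 33331 kept the file's identifier. The brightest kept probe stood for a gene. The test of DPG against control was limma's (version 3.58.1, R 4.3.3, lmFit with eBayes, two-sided, Benjamini-Hochberg over 29647 features; 4 residual and 1.95 prior degrees of freedom). The smallest exact permutation p that 3 against 3 allows is 0.1. SE is limma's standard error, and the number of arrays limits the precision.

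On simulated data with 200 genes changed among 29647 features, this comparison called 12% of those set to 1.5-fold, 84% of those set to 2-fold, 94% for 4-fold and 96% for 8-fold, and 4 unchanged features. The simulated noise was normal and independent between features, with each SD taken from limma's moderated variance. These shares therefore need not hold for the real arrays, where the smallest limma adjusted p was 0.125. They do not show that few genes differed. Replicate numbers gave no sign of pairing: same-numbered controls and DPG animals had correlations of -0.02, -0.09 and -0.07 in their deviations from the group means. Differently numbered animals had -0.06 to 0.13. With 3 animals per group these values cannot show that the samples were unpaired.

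The members and lists were chosen with earlier results of these data known. The text names all members and their probes, up to 4 genes per pathway list by smallest p, the 6 genes nearest to Prkab2 in pattern, and the 3 nearest tested genes on either side of it. Strada, Cab39, Acaca, Acacb and G6pc1 were added for their roles, after their values were seen. Alternatives were other scalings and background correction, filters, probe summaries, variance models, the replicate block, the deposited table and each animal left out. The podocyte marker list is not reported here as a whole.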

Additional observations from a re-analysis of the deposited data

How the results depend on the processing

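With each of 18 alternatives, the adjusted count over all features was 0 except without control 2 and without DPG 2 (range 0 to 1 with an animal left out), and the adjusted count over the pathway lists was 0 each time. The unadjusted count over all features, 3669, lay between 2567 and 5008. That over the pathway lists, 5, was 8 with normexp background correction, 8 with an intensity trend and robust variance, 13 when each kept probe was tested separately, a count of probes, and 1 to 7 with an animal left out. Normexp correction moved the log2 differences of Prkab2 to 0.76, of Prkaa2 to -0.02, of Stk11 to 0.10 and of Cfap97d1 to 0.29. Prkab2 stayed above 0 in all 18, between 0.76 and 1.62. Fnip1 turned to 0.05 with normexp correction and to 0.04 with the mean of its probes, which differ in sign. For the others the cause was not tested. With the replicate number as a block, though the numbers gave no sign of pairing, the counts were 0 adjusted and 2987 unadjusted over all features and 5 unadjusted over the lists. Camkk2 and Cfap97d1 gave no value with probes well above background on all 6 arrays. No slide block could be fitted, as the slides hold 1 group each. Signal over background limits Camkk2, which was well above background on 1 of 3 DPG arrays.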
